A study of Mus musculus with 8 samples.

Results

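Described here are 36 genes of T cells, natural killer (NK) cells and type 1 innate lymphoid cells (ILC1), taken by name as a list of lymphocyte genes and not by a threshold on their values. They were followed in bulk RNA-seq of Kupffer cells, the resident macrophages of the mouse liver. Among 32903 genes with a matched RefSeq transcript, all 36 were present, and all 36 passed the filter on low values (at least 1 TPM in at least 3 libraries) among the 15629 genes tested. The 8 libraries came from wild-type mice. The 5 naive libraries are labelled as controls. No vehicle group is labelled, and whether the naive mice received corn oil is not stated, so CCl4 and its vehicle cannot be told apart. The 3 CCl4 libraries were from mice with liver fibrosis, which had received 0.75 mL/kg of the hepatotoxin carbon tetrachloride, in corn oil, over 8 weeks with 3 doses each week. The sources used here give neither the age of the mice nor how the cells were isolated. The CCl4 libraries carry the numbers 1, 2-4 and 3, and the labels do not say whether 2-4 is a pool of mice. Nor do they state that every library came from its own animal, and the p-values then reflect only how far these libraries scatter, which may be partly technical.

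T cells recognise antigen through a T cell receptor that signals through the CD3 chains, while NK cells and ILC1 carry no antigen receptor and are governed by a balance of activating and inhibitory receptors. The liver is rich in NK cells and ILC1, which lie in the sinusoids beside the Kupffer cells and release granzymes, perforin and cytokines. A macrophage preparation may hold RNA of such cells. Several genes on the list are also known outside lymphocytes, for example Cd4 and Cd8a in dendritic cell subsets. In bulk RNA given as shares of a total, fewer cells of a type, less RNA per cell and more RNA from other cells cannot be told apart.

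Levels are in TPM, transcript abundances scaled to transcript length and to a fixed library total, from which read depth cannot be recovered: it is unknown here. The noncoding 7SL RNA alone took 27.5 to 41.3% of TPM across libraries, and the levels of all other genes depend on that share. The number of genes at 1 TPM or more per library ran from 14059 to 15063. The labelled cell type was checked by Clec4f, a lectin of Kupffer cells, at 878 to 1928 TPM in naive and 65.6 to 87.2 TPM in CCl4 libraries. Clec4g, a lectin of sinusoidal endothelium, was above Clec4f in every naive library, at 1557 to 3090 TPM. The summed TPM of 10 endothelial markers (6188 to 12004) likewise exceeded that of 8 Kupffer cell markers (2305 to 4919) in each naive library. The same was true of these sums in each CCl4 library (405.9 to 682.7 against 257.1 to 342.0). One library in each group stood apart. Naive replicate 5 held 14.7 TPM of the dendritic cell lectin Cd209a, against 0.444 to 1.15 in the other naive libraries. CCl4 replicate 2-4 held the highest level of the 3 CCl4 libraries for 33 of the 36 lymphocyte genes, where the same held for 47.2% of all genes tested. Results are therefore also given without these libraries.

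In the CCl4 libraries 3 of the 36 lymphocyte genes rose, where 15.3% of all genes tested rose, and 7 fell, where 22.5% fell (limma, Benjamini-Hochberg adjusted p under 0.05 over all genes). As shares of the list these were 8.33% and 19.4%, both below the shares over all genes, and together 10 of 36 changed, or 27.8%, where 37.8% of all genes did. The genes that rose were Klrd1, Ctla4 and Il7r. Those that fell were Cd3d, Cd3e, Cd3g, Icos, Lck, Skap1 and Cxcr6. The median log2 fold change was -0.41 over the list and -0.06 over all genes. Of the 36 estimates 28 were below 0, where 8574 of the 15629 genes tested had one below 0. With quantile normalization 4011 of all genes rose and 3086 fell in place of 2393 and 3513, the median over all genes moved to 0.11, and 3 and 4 lymphocyte genes were called. In 3 genes every CCl4 library lay above every naive library (16.3% of all genes), namely Klrd1, Ctla4 and Il7r, and in 4 every CCl4 library lay below (20.6% of all genes), namely Cd3d, Cd3e, Cd3g and Icos. Fold changes were computed on log2(TPM + 1), so that those of low genes are understated.

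**Figure D1:**
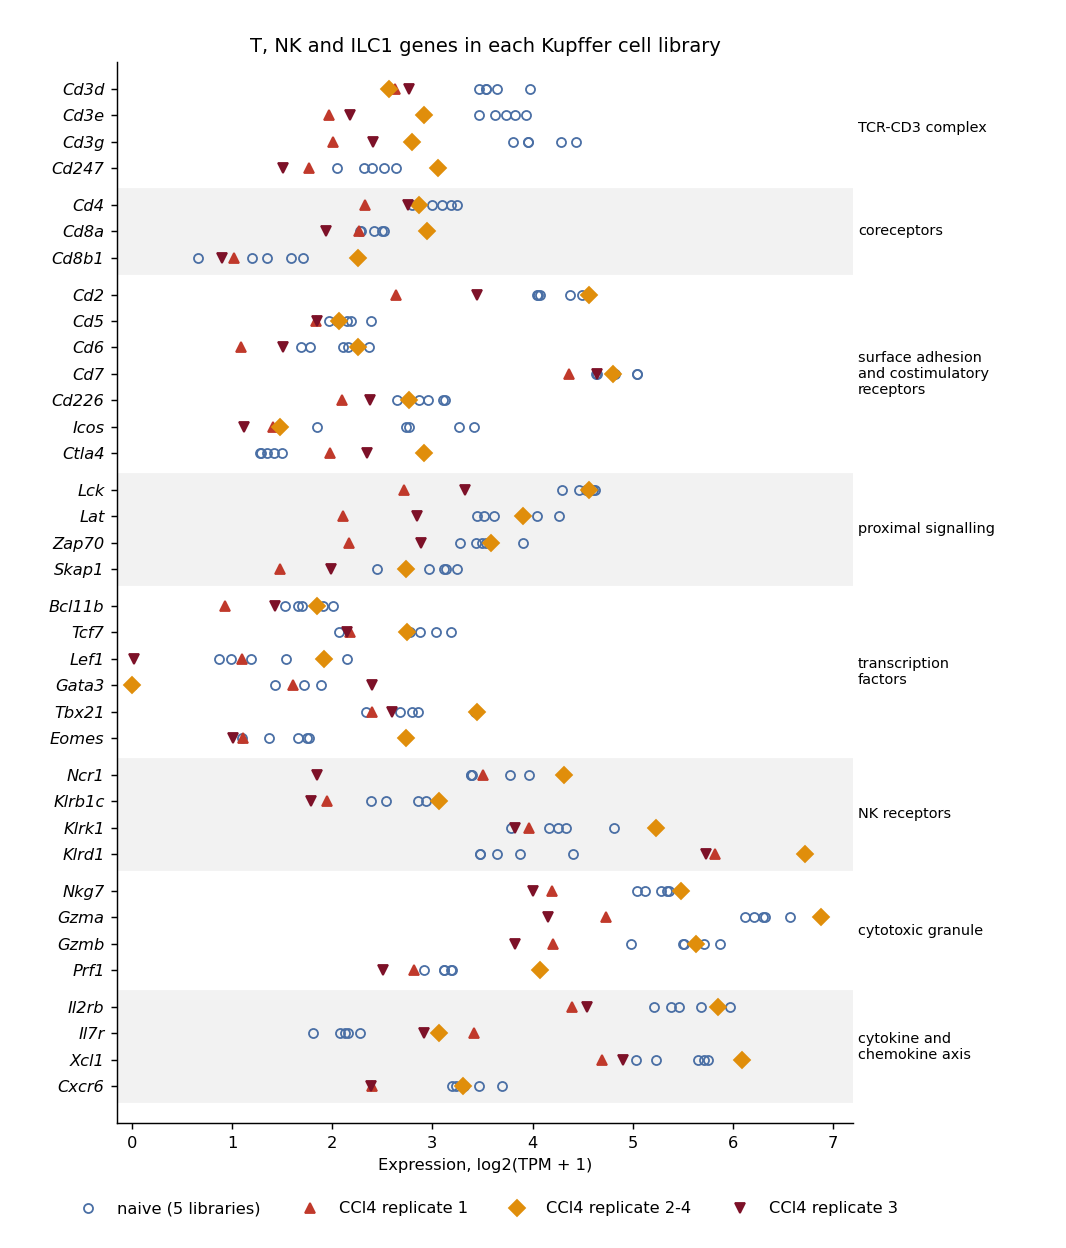
Expression of the 36 lymphocyte genes on a log2(TPM + 1) axis, one row per gene, ordered by role, with 1 symbol per library. For Cd3d, Cd3e, Cd3g and Icos all 3 CCl4 libraries lie left of the 5 naive libraries, for Klrd1, Ctla4 and Il7r they lie right of them, and in 33 rows CCl4 replicate 2-4 (diamond) is the highest CCl4 library.

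The CD3 chains gave the most uniform fall. Cd3g, Cd3d and Cd3e encode the gamma, delta and epsilon chains that carry the T cell receptor to the surface, and all 3 lie together on chromosome 9 (GRCm38): Cd3g at 44969572 to 44980431, Cd3d at 44981769 to 44987052 and Cd3e at 44998735 to 45009663. Cd3g and Cd3d are transcribed away from each other, with 1355 bases between the RefSeq starts. The bases upstream of each start are shown because these neighbours moved together, beside those of Ctla4, which moved the other way. Windows of 250 bases were searched, and the 17 bases for Cd3d and 52 for Cd3e that lie inside the annotated span of the gene are not printed. Sequences are from RefSeq on GRCm38.p6, read 5′ to 3′ on the strand of the gene, for Cd3g chr9:44980432-44980681 (minus strand), Cd3d chr9:44981536-44981768 (plus), Cd3e chr9:45009664-45009861 (minus) and Ctla4 chr1:60908775-60909024 (plus). Capitals mark matches, on either strand, to 4 hexamers searched as descriptions of lymphocyte factor motifs.
Cd3g: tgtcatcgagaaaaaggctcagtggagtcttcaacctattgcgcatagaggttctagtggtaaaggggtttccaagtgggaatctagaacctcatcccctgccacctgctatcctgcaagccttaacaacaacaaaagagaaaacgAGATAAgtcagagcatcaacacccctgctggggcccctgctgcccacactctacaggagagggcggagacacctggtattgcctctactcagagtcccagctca
Cd3d: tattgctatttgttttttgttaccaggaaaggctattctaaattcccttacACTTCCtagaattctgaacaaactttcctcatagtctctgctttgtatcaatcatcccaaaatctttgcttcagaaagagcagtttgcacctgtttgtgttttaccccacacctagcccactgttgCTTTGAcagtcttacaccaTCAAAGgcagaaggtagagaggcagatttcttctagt
Cd3e: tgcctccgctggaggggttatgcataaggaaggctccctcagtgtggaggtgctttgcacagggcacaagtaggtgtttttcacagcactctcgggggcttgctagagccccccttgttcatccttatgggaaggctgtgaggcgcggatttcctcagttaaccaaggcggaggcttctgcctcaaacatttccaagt
Ctla4: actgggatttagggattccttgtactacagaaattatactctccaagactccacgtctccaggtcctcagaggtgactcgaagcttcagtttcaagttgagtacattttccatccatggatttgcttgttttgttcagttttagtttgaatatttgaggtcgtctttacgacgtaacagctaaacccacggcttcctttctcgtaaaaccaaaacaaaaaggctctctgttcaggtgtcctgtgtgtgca
The hexamer for the core bound by RUNX factors was TGTGGT. The hexamer for ETS factors was GGAAGT. Factors of the GATA family were represented by AGATAA. For TCF and LEF factors the letters were CTTTGA. No match overlapped another in these windows. Cd3g held 1 GATA match, Cd3d 1 ETS and 2 TCF matches, Cd3e 1 ETS match (within the bases not printed) and Ctla4 none. Of 32851 upstream windows of this length, 14% held the RUNX, 19.7% the ETS, 9.99% the GATA and 13.8% the TCF hexamer. Windows were found for 26 of the 36 lymphocyte genes (the first listed start of each), and 10 of these held the RUNX, 11 the ETS, 1 the GATA and 4 the TCF hexamer. A match is a run of letters and not a measured site.

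Cd3g stood at 20.7, 14.5, 12.98, 14.5 and 18.5 TPM in naive replicates 1 to 5 and at 3.02, 5.96 and 4.31 TPM in CCl4 replicates 1, 2-4 and 3. The groups did not overlap, and the log2 fold change was -1.68 (SE 0.215, limma adjusted p = 0.000135). Cd3e read 12.3, 13.2, 11.4, 10.03 and 14.3 TPM in naive and 2.92, 6.53 and 3.50 TPM in CCl4 libraries, again without overlap, at -1.37 (SE 0.221, limma adjusted p = 0.000661). Cd3d was the most even of the chains within the CCl4 libraries, with 10.6, 10.01, 11.5, 10.6 and 14.7 TPM in naive and 5.16, 4.94 and 5.82 TPM in CCl4 libraries. Its log2 fold change was -0.98 (SE 0.162, limma adjusted p = 0.000787). For Cd3d the 3 CCl4 libraries spanned less than 1 TPM, whereas for Cd3e and Cd3g replicate 2-4 was highest. The summed TPM of the 3 chains was 35.1 to 47.5 in naive and 11.1 to 17.4 in CCl4 libraries. Cd247 encodes the zeta chain, which also serves the activating receptors of NK cells, and did not follow them. It held 5.23, 4.70, 4.26, 3.97 and 3.13 TPM in naive and 2.41, 7.34 and 1.83 TPM in CCl4 libraries, so that CCl4 replicate 2-4 lay above and the other CCl4 libraries below every naive library (log2 fold change -0.27, SE 0.317, limma adjusted p = 0.542). The ratio of Cd247 to the mean of the 3 chains was 0.198 to 0.375 in naive libraries and 0.652, 1.26 and 0.403 in CCl4 replicates 1, 2-4 and 3. The fall of Cd3e rests on summing its 2 transcript models. Between libraries the TPM moved from one model to the other (0 to 13.9 in the curated model and 0.445 to 11.4 in the predicted one among naive libraries), and with curated transcripts alone its log2 fold change was -0.12 (limma adjusted p = 0.92).

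None of the 3 coreceptors was called. Cd4, the coreceptor for MHC class II, was at 6.97, 8.07, 7.56, 5.96 and 8.51 TPM in naive and at 4.02, 6.31 and 5.73 TPM in CCl4 libraries (log2 fold change -0.42, SE 0.181, limma adjusted p = 0.0971). The CCl4 values reached into the naive range through replicate 2-4. With curated transcripts alone Cd4 was called lower. Cd8a, the alpha chain of the coreceptor for MHC class I, was at 4.65, 4.74, 4.34, 3.88 and 3.84 TPM in naive and 3.83, 6.72 and 2.84 TPM in CCl4 libraries (log2 fold change -0.01, SE 0.222, limma adjusted p = 0.975). Cd8b1, the beta chain, which unlike Cd8a is largely confined to T cells, lay between 0.572 and 2.27 TPM in naive and between 0.858 and 3.79 TPM in CCl4 libraries. In both CD8 chains replicate 2-4 was the highest of all 8 libraries.

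The 2 costimulatory receptors of the CD28 family on the list moved in opposite directions. They lie near each other on chromosome 1 (Ctla4 at 60909025 to 60915832, Icos at 60960773 to 61000322). Icos, a costimulator of activated T cells and of some innate lymphoid cells, read 9.70, 8.61, 5.82, 5.66 and 2.59 TPM in naive and 1.65, 1.78 and 1.16 TPM in CCl4 libraries. It fell without overlap (log2 fold change -1.48, SE 0.317, limma adjusted p = 0.00393), and the lowest naive library was replicate 5. Ctla4, the inhibitory receptor that competes with CD28 and is abundant in regulatory T cells, read 1.67, 1.82, 1.43, 1.42 and 1.54 TPM in naive and 2.92, 6.52 and 4.09 TPM in CCl4 libraries. It rose without overlap (log2 fold change 1.05, SE 0.214, limma adjusted p = 0.00297). Both are low, and the split of Icos among its 4 transcript models varied between libraries: with curated transcripts alone its log2 fold change was -0.60 (limma adjusted p = 0.432). The adhesion and scavenger-type receptors did not pass the test. Cd2, which binds CD48, was at 15.5 to 21.5 TPM in naive and at 5.21, 22.6 and 9.88 TPM in CCl4 libraries. Cd226, an activating receptor of NK and T cells, was at 5.26 to 7.74 and at 3.28, 5.78 and 4.18 TPM (log2 fold change -0.53, SE 0.195, limma adjusted p = 0.0539). Cd7, an immunoglobulin-family receptor, lay at 23.9 to 32.0 and 19.6 to 26.9 TPM, Cd5, a restraint on receptor signalling, at 2.91 to 4.21 and 2.57 to 3.19 TPM, and Cd6, which binds CD166, at 2.21 to 4.14 and 1.13 to 3.79 TPM. The limma adjusted p was 0.159 for Cd2, 0.284 for Cd7, 0.314 for Cd5 and 0.278 for Cd6.

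Genes of proximal receptor signalling all had estimates below 0, as did 8574 of the 15629 genes tested. Of these 4 genes 2 fell, where 22.5% of all genes tested fell. Lck, the kinase that phosphorylates the CD3 chains, was tightly grouped in naive libraries at 22.1, 21.1, 23.4, 18.6 and 23.6 TPM. In CCl4 libraries it read 5.59, 22.7 and 9.02 TPM, with replicate 2-4 inside the naive range and the others well below it (log2 fold change -0.97, SE 0.327, limma adjusted p = 0.039). Skap1, an adaptor linking the receptor to integrins, read 7.79, 6.80, 7.63, 4.45 and 8.48 TPM in naive and 1.78, 5.64 and 2.97 TPM in CCl4 libraries (log2 fold change -0.92, SE 0.282, limma adjusted p = 0.0256). The same order of the CCl4 libraries was seen in Lat, the membrane scaffold of the receptor, at 9.91 to 18.2 TPM in naive and 3.30, 14.0 and 6.17 TPM in CCl4 libraries. Zap70, the kinase that docks on phosphorylated CD3 chains, was at 8.70 to 14.0 and at 3.47, 10.98 and 6.39 TPM. Adjusted p was 0.0922 for Lat and 0.093 for Zap70. The call of Lck was lost without any 1 of the 5 naive libraries, CCl4 replicate 1 or CCl4 replicate 3 (highest adjusted p 0.159), and that of Skap1 without naive replicates 1 or 3 or CCl4 replicates 1 or 3 (highest 0.11). Without CCl4 replicate 2-4 both stayed called, at -1.48 and -1.25.

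None of the 6 transcription factors was called. Tcf7, which encodes TCF1 of naive and memory T cells and of innate lymphoid precursors, was at 6.32, 7.21, 8.10, 5.84 and 3.19 TPM in naive and 3.53, 5.72 and 3.42 TPM in CCl4 libraries. The lowest of the 8 libraries was naive replicate 5, and without it the log2 fold change of Tcf7 went from -0.43 (limma adjusted p = 0.228) to -0.61 (adjusted p = 0.0287). Tbx21, encoding T-bet of NK cells, ILC1 and type 1 helper T cells, was at 4.06 to 9.77 and at 4.28, 9.88 and 5.03 TPM, and Eomes, which separates NK cells from ILC1, at 1.14 to 2.40 and at 1.16, 5.67 and 1.01 TPM. Both were highest in CCl4 replicate 2-4 of all 8 libraries. Bcl11b, a regulator of T cell commitment, stayed at or under 3.01 TPM and Lef1 at or under 3.44 TPM in every library. Gata3 was listed at 0 in naive replicate 5 and CCl4 replicate 2-4 and at no more than 4.26 TPM elsewhere.

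Klrd1 gave the largest change on the list. It encodes CD94, which pairs with an NKG2 chain to form receptors for the non-classical MHC molecule Qa-1, and lies on chromosome 6 at 129588092 to 129598775 in the NK gene complex, beside Klrk1 (129610323 to 129623903). Klrd1 read 13.7, 11.5, 10.2, 10.1 and 20.2 TPM in naive and 55.7, 104.6 and 52.1 TPM in CCl4 libraries. The mean went from 13.1 ± 4.20 TPM (SD, n = 5) to 70.8 ± 29.3 TPM (SD, n = 3), a log2 fold change of 2.32 (SE 0.271, limma adjusted p = 7.28e-05). Of the naive libraries, replicate 5 came closest to the CCl4 values. It was also the highest naive library for genes with estimates below 0, among them Cd3d, Cd3e, Lck, Lat and Il2rb. The 2 NKG2 partner chains read here did not rise with it when all libraries and transcripts were used. Klrc1 and Klrc2, which encode the inhibitory and activating partners NKG2A and NKG2C and were singled out after their values were seen, held 4.48 to 7.36 and 4.12 to 7.81 TPM in naive and 2.28 to 5.01 and 2.37 to 2.60 TPM in CCl4 libraries. Their log2 fold changes were -0.72 (SE 0.243, limma adjusted p = 0.0377) and -0.98 (SE 0.203, adjusted p = 0.00326). The ratio of Klrd1 to Klrc1 was 1.67 to 2.23 in naive replicates 1 to 4, 4.51 in naive replicate 5 and 20.9 to 24.4 in the CCl4 libraries. Klrc1 and Klrc2 are close paralogs whose reads may be shared. The call of Klrc1 was lost without naive replicates 1, 2 or 4 or CCl4 replicates 1 or 3 (highest adjusted p 0.147), and its sign changed with curated transcripts alone (0.66, adjusted p = 0.477).

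The other NK receptors did not pass the test. Ncr1, encoding the activating receptor NKp46 of NK cells and ILC1, was at 12.7, 9.45, 14.6, 9.53 and 9.43 TPM in naive and at 10.4, 18.9 and 2.61 TPM in CCl4 libraries, so the CCl4 group held both the highest and the lowest value. Klrb1c, which encodes the NK receptor NKR-P1C, was at 7.29, 6.25, 4.80, 4.21 and 6.67 TPM in naive and at 2.86, 7.38 and 2.45 TPM in CCl4 libraries (log2 fold change -0.49, SE 0.291, limma adjusted p = 0.22). Klrk1, encoding the activating receptor NKG2D, was at 12.8 to 27.2 and at 14.6, 36.6 and 13.2 TPM, with an estimate of 0.07 (limma adjusted p = 0.884). The summed TPM of the 4 NK receptors was 40.8 to 60.9 in naive and 70.4 to 167.5 in CCl4 libraries. Klrd1 alone of the 4 was above every naive library in all 3 CCl4 libraries, and in replicate 2-4 the others were too.

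**Figure D2:**
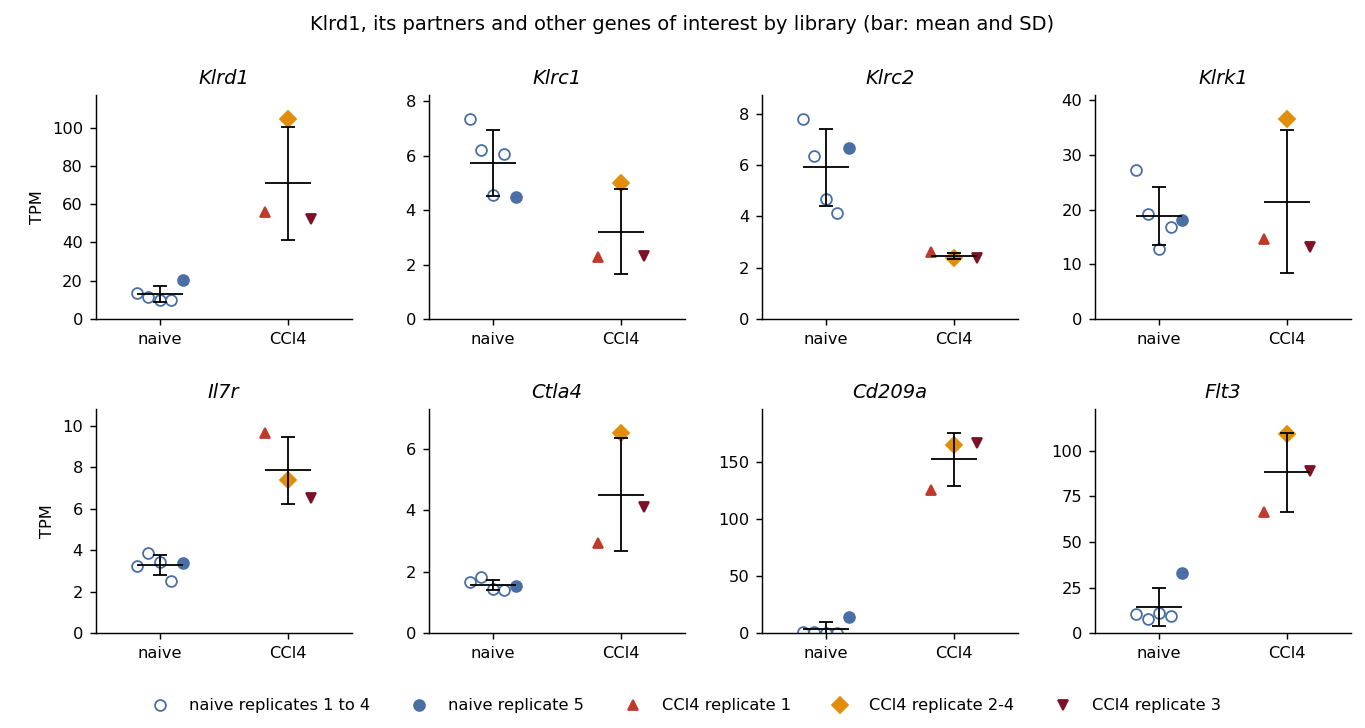
TPM of 8 genes by library on linear axes from 0, with the group mean and SD as a bar. Klrd1, Il7r, Ctla4, Cd209a and Flt3 are higher in all 3 CCl4 libraries than in any naive library, Klrc2 is lower, and naive replicate 5 (filled) is the highest naive library for Klrd1, Cd209a and Flt3. Cd209a and Flt3 had the largest rises of 8 conventional dendritic cell markers, of which 3 rose and 2 fell.

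Klrd1 was examined beside the dendritic cell and monocyte markers, several of which also moved with the groups, where 15.3% of all genes tested rose and 22.5% fell. Of 8 conventional dendritic cell markers 3 rose and 2 fell, and their summed TPM was 218.4 to 315.9 in naive and 384.6 to 501.9 in CCl4 libraries, with naive replicate 5 the highest naive library. Cd209a was at 0.444 to 1.15 TPM in naive replicates 1 to 4, 14.7 in naive replicate 5 and 125.0 to 165.7 TPM in CCl4 libraries. Flt3, the growth factor receptor of dendritic cells, was at 8.13 to 10.9, 33.2 and 66.2 to 109.3 TPM. These were the largest rises among the 8, with log2 fold changes of 5.77 and 2.69, and Batf3 rose by 0.61. Clec9a and Zbtb46 fell, at -1.44 and -1.38, and Xcr1, Cadm1 and Itgae were not called. The mean of the sum went from 255.6 to 435.0 TPM, and that of Cd209a alone from 3.60 to 151.8 TPM. The markers thus did not rise as a set. Of 8 monocyte markers 6 were tested, 4 rose and none fell, and their summed TPM was 113.9 to 230.1 in naive and 672.6 to 1002 in CCl4 libraries. Plac8 and Ly6c2 were not called, and Ly6c2, at or under 3.32 TPM, was listed at 0 in CCl4 replicates 2-4 and 3. Chil3 and Vcan among the 8 markers were at or under 2.95 TPM in every library. The part of these cells in the level of Klrd1 was not tested.

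None of the 4 cytotoxic granule genes was called with all libraries, and in each CCl4 replicate 2-4 was at least 2 times each other CCl4 library. Gzma, encoding granzyme A, was the most abundant lymphocyte gene in the naive libraries at 93.9, 79.1, 77.9, 68.8 and 73.3 TPM, and read 25.7, 117.1 and 16.8 TPM in CCl4 libraries. Its mean was 78.6 ± 9.46 TPM (SD, n = 5) and 53.2 ± 55.6 TPM (SD, n = 3), with an estimate of -1.05 (SE 0.475, limma adjusted p = 0.109). The replicate 2-4 value was 5.52 times the mean of the other 2 CCl4 libraries. Gzmb, encoding granzyme B, was at 57.5, 44.5, 44.8, 30.6 and 51.4 TPM in naive and at 17.4, 48.7 and 13.2 TPM in CCl4 libraries (estimate -0.96, SE 0.356, limma adjusted p = 0.055). Nkg7, a granule membrane protein, was at 39.7, 40.2, 33.8, 32.0 and 37.9 TPM and at 17.4, 43.7 and 15.1 TPM. Prf1, the pore-forming perforin, was at 6.56 to 8.14 TPM in naive and at 6.02, 15.8 and 4.68 TPM in CCl4 libraries. In all 4 genes CCl4 replicates 1 and 3 lay below every naive library, whereas replicate 2-4 lay inside the naive range for Gzmb and above it for the others.

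Among cytokine and chemokine receptors and ligands 1 of 4 rose and 1 fell, where 15.3% of all genes tested rose and 22.5% fell. Il7r, the receptor chain for interleukin-7 that keeps naive and memory T cells alive, read 3.22, 3.85, 3.45, 2.50 and 3.36 TPM in naive and 9.64, 7.37 and 6.53 TPM in CCl4 libraries. It rose without overlap (log2 fold change 1.04, SE 0.18, limma adjusted p = 0.00104), and it is 1 of 3 genes on the list in which replicate 2-4 was not the highest CCl4 library, with Cd3d and Gata3. Cxcr6, the receptor for CXCL16 that holds lymphocytes in the liver sinusoids, read 10.02, 8.92, 8.13, 8.44 and 11.99 TPM in naive and 4.28, 8.87 and 4.22 TPM in CCl4 libraries. It fell (log2 fold change -0.68, SE 0.232, limma adjusted p = 0.0392), but replicate 2-4 lay inside the naive range, and the call was lost without naive replicates 1, 2, 4 or 5 or CCl4 replicates 1 or 3 (highest adjusted p 0.159). Il2rb, the receptor chain for interleukin-2 and interleukin-15, on which NK cells depend, was at 36.1 to 61.7 and at 20.03, 56.8 and 22.3 TPM. Xcl1, a chemokine of NK and T cells that attracts XCR1-bearing dendritic cells, was at 31.8 to 52.9 and at 24.9, 67.2 and 29.0 TPM.

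**Figure D3:**
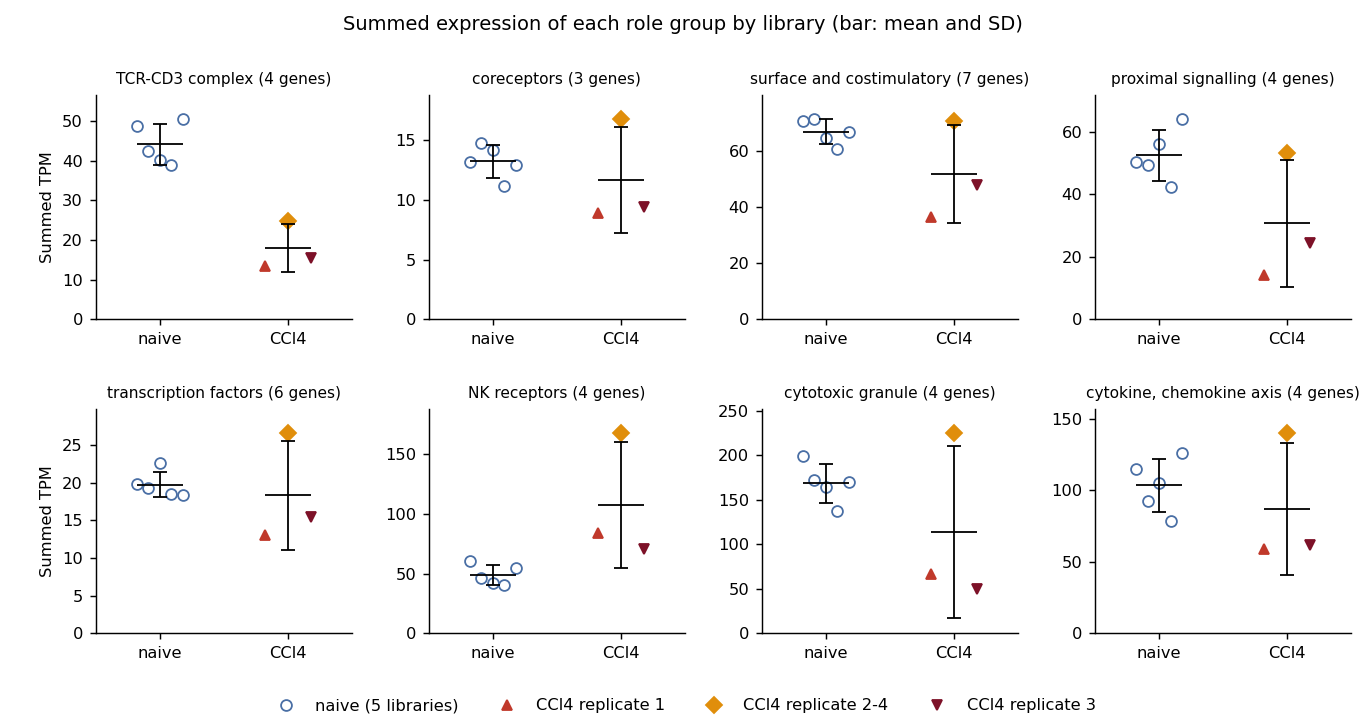
Summed TPM of each of the 8 role groups by library, on linear axes from 0, with the group mean and SD. For the TCR-CD3 complex all CCl4 libraries (13.5 to 24.8) lie below all naive libraries (39.1 to 50.7), whereas for the cytotoxic granule genes CCl4 replicates 1 and 3 (66.5 and 49.7) lie below and replicate 2-4 (225.3) above the naive libraries (137.9 to 199.2).

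The 3 CCl4 libraries differed from each other over this list. The summed TPM of the 36 genes was 429.0 to 577.9 in naive libraries, 294.8 and 294.7 in CCl4 replicates 1 and 3 and 725.1 in CCl4 replicate 2-4. Relative to the naive mean, the median log2 difference over the 36 genes was -0.79 in replicate 1, -0.64 in replicate 3 and 0.25 in replicate 2-4, where the same over all genes tested was 0.01, -0.20 and -0.01. In replicate 1, 25 of the 36 genes lay below every naive library (29.6% of all genes) and 3 above (30.7%), in replicate 3, 27 lay below (42.9%) and 4 above (22.3%), and in replicate 2-4 only Cd3d, Cd3e, Cd3g and Icos lay below (31.8%). In replicate 2-4, 16 genes lay above every naive library (33.1%), among them Gzma, Ncr1, Klrk1, Eomes, Prf1 and Xcl1. The median ratio of replicate 2-4 to the mean of the other CCl4 libraries was 2.30 over the list and 1.09 over all genes, and in 17 of the 36 genes replicate 2-4 was at least 2 times each of the others (4.9% of all genes). A single library allows no test of this difference.

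Without CCl4 replicate 2-4, 19 of the 36 genes fell, or 52.8%, where 20.7% of all genes fell, and the same 3 rose, or 8.33%, where 12.3% rose. That library was set aside as the highest CCl4 library for 33 of these same genes, so its removal lowers their CCl4 means by construction. The larger share is thus no separate support for a fall, and 2 CCl4 libraries remain. With any other 1 library left out 4 to 7 of the 36 fell, where 16.8 to 26.9% of all genes did. The genes that fell without it and not with it were Cd247, Cd2, Cd6, Cd226, Lat, Zap70, Klrb1c, Nkg7, Gzma, Gzmb, Il2rb and Xcl1. Gzma went from -1.05 to -1.86 (limma adjusted p = 8.07e-05) and Nkg7 from -0.67 to -1.13 (adjusted p = 0.000487). Without naive replicate 5 as well, 21 fell (26.8% of all genes), with Tcf7 and Eomes added, and 3 rose (14.2%). Without naive replicate 5 alone 6 fell (26.9%) and 3 rose (16.6%). With curated transcripts alone 3 of 35 tested fell (Cd3d, Cd3g and Cd4, where 20.3% of all genes fell) and 3 rose (12.5%). With the replicate number as a block, which in effect leaves replicates 1 and 3 of both groups, 20 fell (22%) and 4 rose (12%). That fit spends nearly all libraries on the replicate numbers, so its p-values rest mostly on a spread pooled over all genes. Cd226 and Gzmb were also called without naive replicate 4. The CD3 chains, Icos, Klrd1, Ctla4 and Il7r were called the same way whichever of the 8 libraries was left out.

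**Figure D4:**
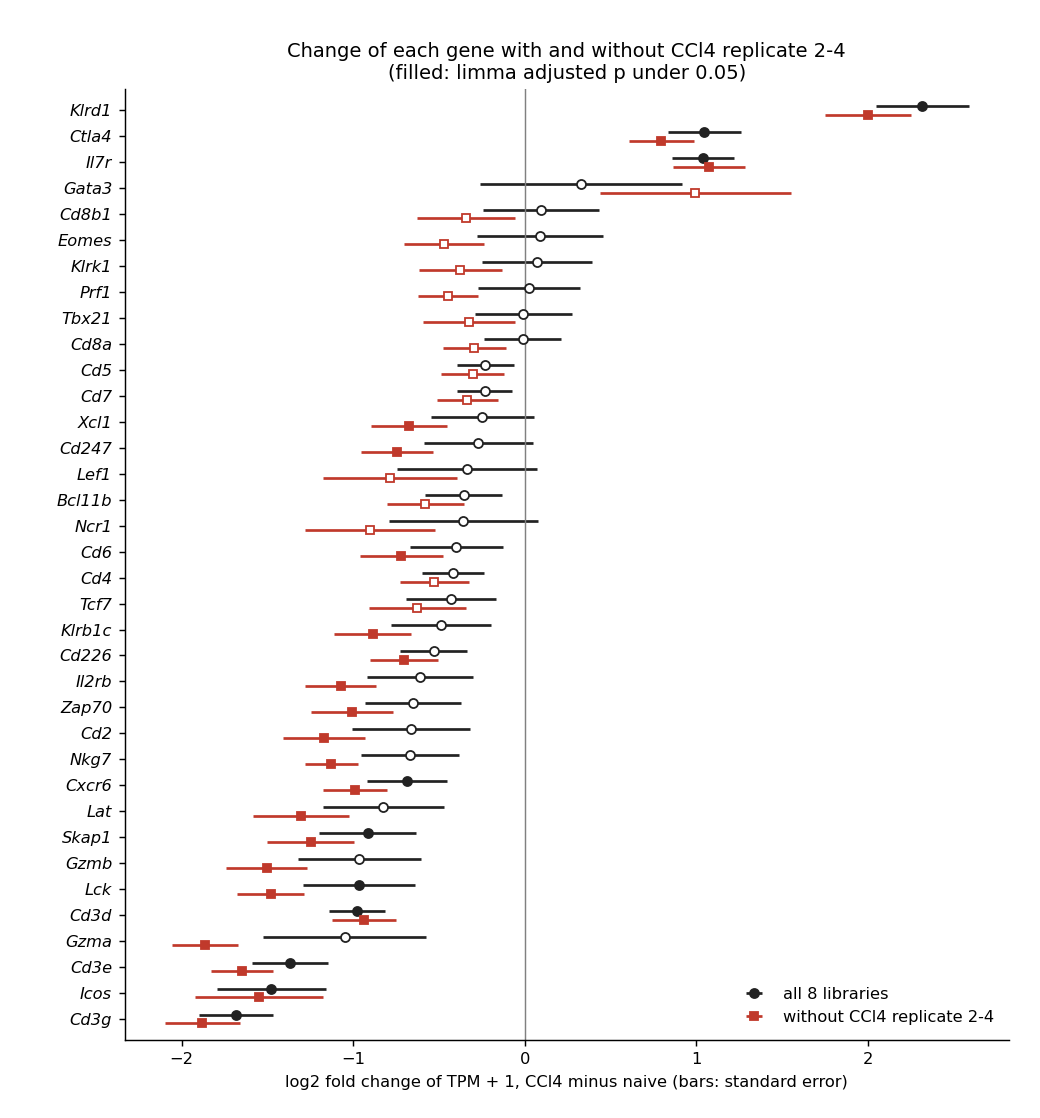
Log2 fold change of TPM + 1 (CCl4 minus naive) with its standard error for each lymphocyte gene, from all 8 libraries (circles) and without CCl4 replicate 2-4 (squares), filled where the limma adjusted p is under 0.05. Without that library 19 genes in place of 7 are filled on the left, and Klrd1, Ctla4 and Il7r stay filled on the right. It was the highest CCl4 library for 33 of the 36 genes, so a shift of those to the left follows from its removal.

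Further lymphocyte genes were read from lists by name, and the counts below stand beside 15.3% of all genes tested that rose and 22.5% that fell. Of 18 genes listed as T cell-restricted signalling and surface genes 16 were tested, 1 rose and 2 fell, with a median of -0.33. Grap2, an adaptor of the receptor complex, rose by 1.70 on the log2 scale, from 4.59 to 8.55 TPM in naive to 15.3 to 32.0 TPM in CCl4 libraries. Prkcq, encoding protein kinase C theta and the most abundant of the list over all libraries, though below Grap2 in the CCl4 libraries, fell by 2.48. Grap2 thus moved against the CD3 chains and Prkcq fell more than any of those chains. The part of other cells in these genes was not tested. Cd40lg, the CD40 ligand of helper T cells, fell from 1.34 to 2.56 TPM in naive to 0.047 to 0.793 TPM in CCl4 libraries (limma adjusted p = 0.00477). Of 23 NK, ILC1 and cytotoxic effector genes 20 were tested, 4 rose and 7 fell, with a median of -0.48. Sh2d1b1, an adaptor of SLAM family receptors in NK cells, rose by 3.30, from 1.57 to 1.85 TPM in naive replicates 1 to 4 and 8.42 in naive replicate 5 to 27.0 to 39.8 TPM in CCl4 libraries. Naive replicate 5 was its highest naive library, as for Cd209a and Flt3 but also for Cd3d and Lat, and the part of cells other than NK cells was not tested. Itga1, an integrin of ILC1, fell by 3.55, and Tnfsf10, the death ligand TRAIL, by 2.71. Both are also known in endothelium, whose 10 sinusoidal markers all fell, to a summed 405.9 to 682.7 TPM in CCl4 libraries. Their part in these values was not tested. Ccl5, a chemokine of cytotoxic lymphocytes and the most abundant of the list, was at 82.8 to 120.6 TPM in naive and at 68.7, 188.7 and 62.2 TPM in CCl4 libraries (limma adjusted p = 0.87), the order seen in Gzma.

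Of 21 T helper, regulatory and checkpoint genes 17 were tested, 3 rose and 2 fell, with a median of 0.32 (of all genes tested, 15.3% rose and 22.5% fell). The inhibitory receptors Havcr2, which macrophages and dendritic cells also carry, and Pdcd1 rose by 2.55 and 1.47. Havcr2 was at 5.54 to 7.05 TPM in naive replicates 1 to 4, 27.3 in naive replicate 5 and 45.1 to 67.5 TPM in CCl4 libraries. S1pr1, the receptor that guides lymphocytes out of tissue and is abundant in endothelium, fell by 2.53, from 50.6 to 77.5 TPM to 7.29 to 13.9 TPM. Of 12 antigen receptor signalling genes that myeloid cells share 7 rose and 3 fell, with a median of 0.64. Nfatc2, a transcription factor downstream of immune receptors, rose by 2.34, and Ptprc, the leukocyte antigen CD45, by 1.50. Plcg1 fell by 1.99. The genes listed as shared thus had a positive median and those listed as T cell-restricted a negative one. The lists were made by name, and the difference between them was not tested.

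Markers of other cells were read beside these results, where 15.3% of all genes tested rose and 22.5% fell. The 10 B cell and plasma cell markers were, like the cytotoxic genes, highest in CCl4 replicate 2-4 as a sum. Their summed TPM was 145.0 to 195.6 in naive and 100.7, 204.9 and 103.6 in CCl4 replicates 1, 2-4 and 3, and 9 of 10 were highest in replicate 2-4 among the CCl4 libraries. Of these markers 1 rose (Jchain) and 1 fell (Blk). The excess of replicate 2-4 was not confined to lymphocyte genes. Of the 10 sinusoidal endothelial markers 9 were also highest in it among the CCl4 libraries, with sums of 405.9, 682.7 and 561.2 TPM in replicates 1, 2-4 and 3. Of the 8 neutrophil markers 4 were tested, 1 rose and 1 fell, their sums were 25.3 to 31.7 and 42.7 to 55.5 TPM, and the defining markers S100a8 and S100a9 were at or under 4.19 TPM in every library. The 7 plasmacytoid dendritic cell markers summed to 44.6 to 93.4 and 41.9 to 46.8 TPM, with 2 lower. Of 5 mast cell and basophil markers 1 was tested and fell, and Mcpt8 and Fcer1a were listed at 0 in all 3 CCl4 libraries. The 8 Kupffer cell markers all fell, to a summed 257.1 to 342.0 TPM in CCl4 libraries. The part of these cell types in the lymphocyte values was not tested.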

How the data were processed

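RNA of Kupffer cells was sequenced from 5 naive and 3 CCl4-treated samples with a directional kit, per the labels' protocols. The authors deposited a TPM value for each RefSeq transcript in every library. TPM hold no depth, so no counting error can be given. They were made with kallisto 0.42.4 and build GRCm38, per the submitters' processing notes. The index and read trimming are not given in sources used here. Of 107384 transcripts, 86722 were matched by accession to RefSeq genes of GRCm38.p6 and summed to 32903 genes, and the 20662 unmatched transcripts (6.06 to 7.58% of TPM) were left out. The test, limma 3.58.1 in R 4.3.3, was run on log2(TPM + 1) of the genes that reached 1 TPM in 3 or more libraries, with the intensity trend and Benjamini-Hochberg adjustment over all genes tested, with a threshold of 0.05. The test was first checked on simulated data. The 36 genes, the other gene lists and the tests were chosen with earlier results of these data known. All 36 were described, and from each related list the 3 called genes with the largest change and the most abundant gene were named, except 1 gene that is not reported here. Promoter sequences are from RefSeq. Alternatives covered the pseudocount, filter, scaling, library weights, replicate block, each library left out and curated transcripts. Numbers 1 and 3 are shared by both groups, but the labels do not pair the samples.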

Additional observations from a re-analysis of the deposited data

How the results depend on the processing

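Each of 52 named genes was refitted under up to 20 alternatives, giving 1027 values, of which 892 kept their direction and side of the threshold, 51 newly passed it, 38 no longer passed it and 46 changed sign. Cd3d, Cd3g, Klrd1 and Il7r were called the same way in all 20, Ctla4 in the 19 that tested it, Cd3e and Icos in 19, Skap1 in 13, Cxcr6 in 10 and Lck in 9. The number of lymphocyte genes that fell, 7 with all libraries, was 4 with no filter (13.2% of all genes fell), 4 with quantile normalization (19.7%) and 4 to 19 with 1 library left out (16.8 to 26.9%). It was 21 without CCl4 replicate 2-4 and naive replicate 5 (26.8%) and 3 with curated transcripts alone (20.3%), both chosen after seeing the data. Over all genes, 4011 rose with quantile normalization and 1592 with curated transcripts. With the replicate block 20 lymphocyte genes fell (22%). The pairing rests on numbers 1 and 3, so this fit in effect compares those libraries and replicate 2-4 carries no comparison. The p-values of this fit rest mostly on a spread pooled over all genes. The deviations of same-numbered libraries correlated at 0.0772 and -0.0414, so the numbers were not taken to pair the samples. Of genes not called, Cd8a reversed to 0.0069 with a pseudocount of 5, 0.031 with median-of-ratios scaling and 0.23 with quantile normalization, and Tbx21 to 0.0019, 0.039 and 0.24. Ccl5 reversed to 0.014 with quantile normalization. With library weights, the replicate block and both libraries removed, Cd8b1 went to -0.10, -0.57 and -0.50, Eomes to -0.12, -0.65 and -0.58, Klrk1 to -0.16, -0.41 and -0.38, and Prf1 to -0.12, -0.50 and -0.44. Prf1 was at -0.026 scaled to protein-coding genes. With curated transcripts Lef1 was at 0.034, Eomes at -0.43 and Klrc1 at 0.66. Leaving out 1 library, or both named above, estimates spanned 0 for Cd247 (-0.83 to 0.033), Cd8a (-0.32 to 0.21), Cd8b1 (-0.50 to 0.34), Lef1 (-0.83 to 0.16), Gata3 (-0.20 to 0.99), Tbx21 (-0.32 to 0.20), Eomes (-0.58 to 0.39), Ncr1 (-0.95 to 0.33), Klrk1 (-0.38 to 0.33), Prf1 (-0.45 to 0.34), Xcl1 (-0.68 to 0.022) and Ccl5 (-0.65 to 0.21). The cause of these differences was not tested.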
